A study of Mus musculus with 9 samples.

Results

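The genes described here were 10 genes of the antioxidant and metal responses, named by a list of symbols with no threshold on a measured value, although earlier results of these data were known when the list was made: Hmox1, Nqo1, Gclc, Gclm, Txnrd1, Srxn1, Nfe2l2, Keap1, Mt1 and Mt2. All 10 were found among the 22972 gene names listed for each library. Their RNA was measured by sequencing in B16 cells, a mouse melanoma line labelled WT, which were grown on flexible PDMS (silicone rubber) film and collected on day 3. In total 9 libraries were analyzed. The 3 CTL libraries came from cells that were not strained, the 3 MS libraries from cells that were cyclically strained for 72 h, and the 3 Blebb libraries from cells treated with blebbistatin, which inhibits myosin, at 100 ng/mL for 72 h. The study's text adds mechanical stimulation to the last group, whereas the labels name blebbistatin alone, so the group is called Blebb. All groups are 1 cell line, and the labels call the replicates parallel experiments without saying whether the cultures were separate, so that p-values measure only the spread between these libraries.

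The transcription factor NRF2, the product of Nfe2l2, is held in the cytoplasm and sent to degradation by KEAP1 until oxidants or electrophiles modify KEAP1. NRF2 then enters the nucleus, pairs with small MAF proteins and binds antioxidant response elements of genes for glutathione synthesis, thioredoxin recycling, quinone detoxification and heme breakdown. Metallothioneins are small cysteine-rich proteins that bind zinc and copper, and their genes are driven mainly by the zinc-sensing factor MTF1 through metal response elements. In melanoma cells, pigment synthesis is itself a source of oxidants and quinones.

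The start regions of these genes are shown first, since elements of both responses can lie in such regions. RefSeq start windows on GRCm38.p6 were matched for 8 of the 10 genes, all but Hmox1 and Gclc. The 250 bases before each start were searched on both strands for the core of the antioxidant response element, TGACNNNGC, and of the metal response element, TGCACNC or TGCGCNC. The first was found in 10.2% of all 32851 windows and the second in 21.4%, and 1.26% of windows held 3 or more metal response cores. Of the 8 genes, Mt2, Gclm, Nfe2l2 and Txnrd1 held 1 antioxidant core each, the last in 1 of its 3 starts. Metal response cores were found in Mt2 (3), Gclm (2), Mt1 (1) and Srxn1 (1), and neither core was found in the windows of Nqo1 and Keap1. A match of letters is a description and was not tested as a binding site. Other spellings of either element and bases further upstream were not searched. The lack of a core thus holds only for these letters and windows. The longest 3 stretches below compare both metallothionein genes and the glutathione gene that held both kinds of core. The short stretches show the antioxidant core of the factor's own gene and of Txnrd1. Capitals mark the cores on either strand. In Gclm, 1 metal response core overlaps the antioxidant core and both form 1 run of capitals, and in Mt2 the antioxidant core is the run of 9 capitals.
Mt2, chr8:94172368-94172610, plus strand: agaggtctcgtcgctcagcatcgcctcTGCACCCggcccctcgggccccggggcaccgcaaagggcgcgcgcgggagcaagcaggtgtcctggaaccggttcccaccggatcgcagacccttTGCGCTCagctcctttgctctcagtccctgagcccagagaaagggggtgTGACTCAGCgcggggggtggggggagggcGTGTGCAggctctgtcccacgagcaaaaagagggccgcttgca
Mt1, chr8:94178839-94179081, plus strand: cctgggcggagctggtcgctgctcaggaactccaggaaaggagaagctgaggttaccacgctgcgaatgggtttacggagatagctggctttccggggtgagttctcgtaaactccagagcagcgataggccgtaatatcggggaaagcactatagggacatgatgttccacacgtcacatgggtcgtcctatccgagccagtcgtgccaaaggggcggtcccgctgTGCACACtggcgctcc
Gclm, chr3:122245307-122245549, plus strand: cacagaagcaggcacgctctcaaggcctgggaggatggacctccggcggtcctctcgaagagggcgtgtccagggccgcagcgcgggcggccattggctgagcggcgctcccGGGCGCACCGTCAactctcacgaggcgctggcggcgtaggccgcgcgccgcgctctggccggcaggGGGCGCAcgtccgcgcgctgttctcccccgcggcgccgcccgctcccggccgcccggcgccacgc
Nfe2l2, chr2:75704885-75704913, minus strand: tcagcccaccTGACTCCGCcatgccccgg
Txnrd1, chr10:82859104-82859132, plus strand: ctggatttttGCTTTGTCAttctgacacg
The antioxidant core of Mt2 lay 79 to 71 bases before its start, and that of Gclm 134 to 126 bases before, on the minus strand. The core of Nfe2l2 was 240 to 232 bases before its start, near the far end of the window searched. The metal response core of Mt1 lay 23 to 17 bases before its start, and those of Mt2 began 223, 128 and 50 bases before. These counts and positions hold only for the RefSeq starts used, and bases past them were not searched. The Mt2 window ends at 94172617, whereas GENCODE places the first base of that gene at 94172664. The number of cores is thus no measure of all the elements of either metallothionein gene.

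The authors deposited FPKM values, which relate the fragments of a gene to its length and to the total mapped in that library. The depth is unknown, so precision was judged from the spread between libraries. Comparisons used log2(FPKM + 1), on which changes of low genes appear smaller than they are. All 10 melanocyte markers examined averaged over 1 FPKM, and their sum lay between 7667 and 13515 FPKM. All 6 fibroblast and all 6 keratinocyte markers were under 1 FPKM in every library, with sums of at most 0.567 and 0.0550 FPKM. Of the 6 macrophage markers, 5 were under 1 FPKM in every library, while Lyz2 reached 1.48 FPKM. Likeness was about the same within and between groups (median r across genes 0.974 and 0.976, with 9 and 27 pairs). CTL 1 and Blebb 2 stood apart on the first principal component, which held 70.4% of the variance, at -42.1 and -43.9. MS 3 was at -10.0, near Blebb 1 at -7.29, and did not stand apart on this component. It shared with CTL 1 and Blebb 2 a high level of the integrated stress response genes (1968 FPKM in sum, against 1531 FPKM in Blebb 1). Several of the differences and correlations below are therefore also given without CTL 1, MS 3 and Blebb 2. They were named in an earlier analysis of these data.

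All 10 genes were well expressed, and each averaged over 1 FPKM across the libraries, so that all entered the test. FPKM is a level per length, so the genes can be put in an approximate order. The GC content of a gene and reads of overlapping genes can also move its level. Mt1 was the most abundant with a mean of 805 FPKM, above 99.2% of the genes tested, and was followed by Mt2 (327 FPKM), Txnrd1 (236 FPKM), Srxn1 (104 FPKM) and Hmox1 (75.6 FPKM). Nfe2l2 (32.8 FPKM), Keap1 (28.2 FPKM), Nqo1 (15.8 FPKM), Gclm (14.4 FPKM) and Gclc (9.48 FPKM) were lower. The lowest Mt1 library was above the highest Mt2 library, and the lowest Hmox1 library was above the highest Nfe2l2 library. The other neighbours in this order overlapped over the 9 libraries. The plot of each gene by library shows these levels.

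**Figure D1:**
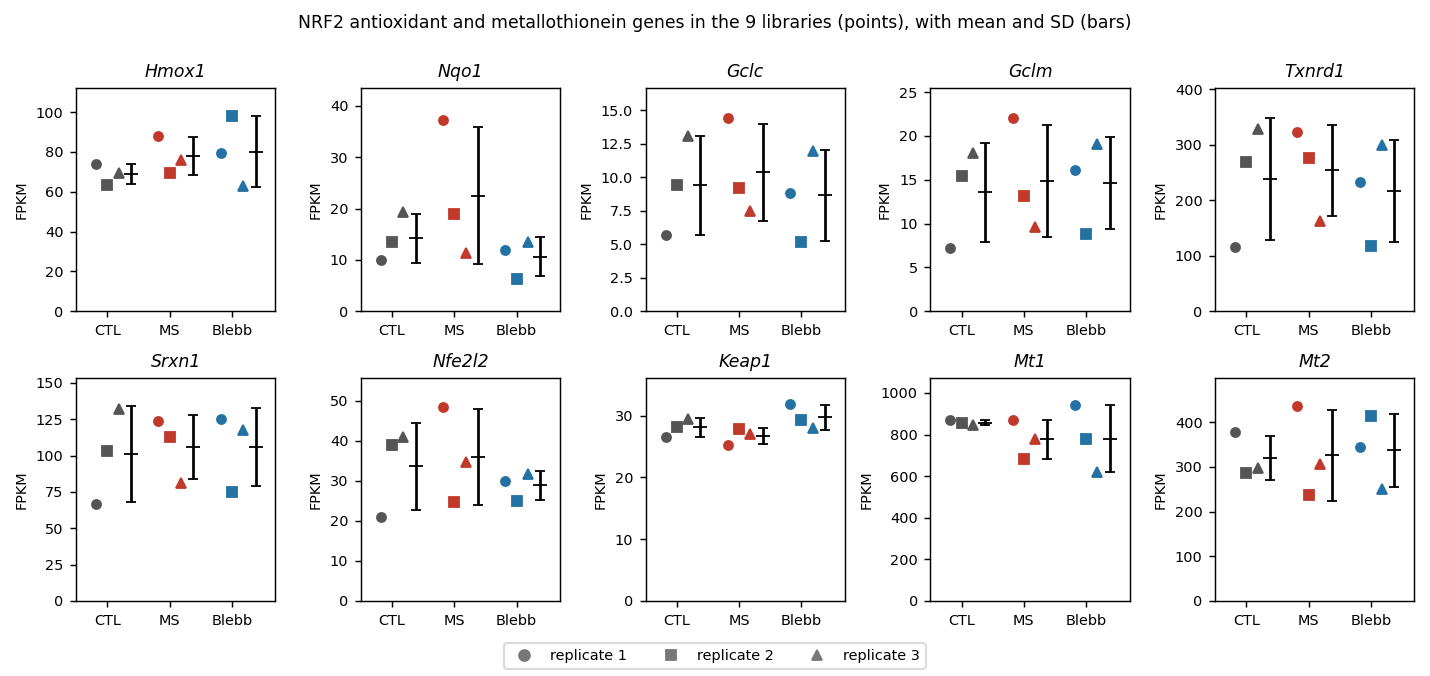
FPKM of the 10 genes (vertical axes, each from 0) in the 3 libraries of CTL, MS and Blebb, with circles, squares and triangles for replicates 1, 2 and 3 and black bars for the mean and SD (n = 3). Replicate 1 of CTL, 3 of MS and 2 of Blebb are the lowest of their groups for Nqo1, Gclc, Gclm, Txnrd1 and Srxn1, while Keap1 stays between 25.3 and 31.9 FPKM.

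Nfe2l2, on chromosome 2 (75675513 to 75704641, minus strand, GRCm38), encodes NRF2. Its level was 21.05, 38.9 and 40.9 FPKM in CTL, 48.4, 24.7 and 34.6 FPKM in MS and 29.8, 24.9 and 31.8 FPKM in Blebb. CTL 1 was the lowest and MS 1 the highest of all, and the groups overlapped. The means were 33.6 ± 10.9 (SD, n = 3), 35.9 ± 11.9 and 28.9 ± 3.55 FPKM, and the largest of the log2 differences, -0.26 in Blebb against MS, was within its standard error (SE) of 0.29. In bulk RNA, fewer cells that express a gene and less RNA per cell cannot be told apart.

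Keap1, on chromosome 9 (21229730 to 21239361, minus strand), encodes the adaptor that presents NRF2 to the CUL3 ubiquitin ligase. It was measured at 26.5, 28.2 and 29.5 FPKM in CTL, 25.3, 27.8 and 27.0 FPKM in MS and 31.9, 29.3 and 27.9 FPKM in Blebb. This was the steadiest of the 10 genes, as the SD of its log2 values (0.094) was larger than in only 2.71% of the genes tested. All Blebb libraries were above all MS libraries, by as little as 27.9 against 27.8 FPKM, and CTL overlapped both. The log2 difference in Blebb against MS was 0.15 (SE 0.11, limma adjusted p = 0.897). It was the only one of the 10 genes with no overlap in this direction, in a comparison where 3.05% of all genes tested had no overlap and were higher. None of the 10 genes was lower without overlap, against 0.683% of all genes. The antisense gene Gm16754 covers 10.9% of the Keap1 exon bases.

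Nqo1, on chromosome 8 (107388225 to 107403206, minus strand), encodes a quinone reductase that is widely used as a readout of NRF2. Its level was 9.90, 13.4 and 19.3 FPKM in CTL, 37.2, 18.8 and 11.4 FPKM in MS and 12.0, 6.33 and 13.5 FPKM in Blebb. MS 1 was far above every other library, MS 2 was below CTL 3, and MS 3 lay among the CTL and Blebb values, so the groups overlapped. Nqo1 varied more than the other 9 genes, with an SD of its log2 values above that of 95.9% of genes tested. The means were 14.2 ± 4.73 (SD, n = 3) in CTL, 22.5 ± 13.3 in MS and 10.6 ± 3.796 FPKM in Blebb.

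The log2 difference of Nqo1 was 0.52 (SE 0.42, limma adjusted p = 1.00) in MS against CTL. In Blebb against MS it was -0.92 (SE 0.42), with a 95% interval from -1.88 to 0.040. This was larger in size than that of 99.8% of genes tested, but its unadjusted p was 0.0583 and its adjusted p was 0.897 (limma). It did not pass the threshold. The difference depended on single libraries, being -0.49 without MS 1 and -1.31 without MS 3, and it was -1.003 without CTL 1, MS 3 and Blebb 2. Without those 3 libraries the unadjusted p was 0.0156 and the adjusted p 0.997 (limma). In MS against CTL the difference was 0.091 without MS 1 and 0.90 without MS 3. In Blebb against CTL it was -0.40, and -0.099 without Blebb 2, which was the lowest library of all.

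Gclc and Gclm encode the catalytic and the modifier subunit of glutamate-cysteine ligase, the rate-limiting enzyme of glutathione synthesis. Gclc, on chromosome 9 (77754535 to 77794485, plus strand), was at 5.68, 9.42 and 13.1 FPKM in CTL, 14.4, 9.24 and 7.46 FPKM in MS and 8.82, 5.19 and 12.0 FPKM in Blebb. Gclm, on chromosome 3 (122245557 to 122270732, plus strand), was at 7.21, 15.4 and 18.01 FPKM in CTL, 22.0, 13.1 and 9.60 FPKM in MS and 16.1, 8.83 and 19.0 FPKM in Blebb. For both subunits CTL 1, MS 3 and Blebb 2 were the lowest of their groups and MS 1 was the highest of all, while the groups overlapped. The group means lay between 8.66 and 10.4 FPKM for Gclc and between 13.6 and 14.9 FPKM for Gclm, so the SD of each group, at least 3.39 and 5.26 FPKM, was larger than the difference of any means. Exons of Gm17494, on the opposite strand, and of Gm6061 cover 4.71% and 3.88% of the Gclm exon bases.

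Txnrd1 encodes the cytosolic thioredoxin reductase, a selenoenzyme that recycles thioredoxin, and Srxn1 encodes sulfiredoxin, which repairs overoxidized peroxiredoxins. Txnrd1, on chromosome 10 (82833951 to 82897712, plus strand), was at 115, 270 and 328 FPKM in CTL, 323, 276 and 163 FPKM in MS and 233, 118 and 299.7 FPKM in Blebb. CTL 1 and Blebb 2 had about the same low level and MS 3 was the next lowest. Srxn1, on chromosome 2 (152105516 to 152111376, plus strand), was at 66.6, 103 and 132 FPKM in CTL, 123, 113 and 80.8 FPKM in MS and 125, 74.9 and 118 FPKM in Blebb. The same 3 libraries were the lowest, and the groups overlapped for both genes. The log2 differences of Txnrd1 were 0.17, -0.27 and -0.10 in MS against CTL, Blebb against MS and Blebb against CTL, with a standard error of 0.46 in each. Without CTL 1, MS 3 and Blebb 2 they were 0.0040, -0.18 and -0.17, with a standard error of 0.18.

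Hmox1, on chromosome 8 (75093621 to 75100589, plus strand), encodes the inducible heme oxygenase, which breaks down heme to biliverdin, iron and carbon monoxide. It was measured at 73.7, 63.5 and 69.3 FPKM in CTL, 88.0, 69.2 and 75.9 FPKM in MS and 79.3, 98.2 and 62.9 FPKM in Blebb. Blebb held both the highest and the lowest library, and the groups overlapped. The means were 68.8 ± 5.12 (SD, n = 3), 77.7 ± 9.52 and 80.2 ± 17.7 FPKM. The log2 difference was 0.20 in Blebb against CTL (SE 0.17, limma adjusted p = 1.00), and it was 0.040 without Blebb 2, 0.36 without Blebb 3 and 0.090 without CTL 1, MS 3 and Blebb 2.

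Mt1 and Mt2, neighbours on chromosome 8 (94179082 to 94180327 and 94172664 to 94173568, plus strand), encode metallothioneins 1 and 2. Mt1 was at 872, 853 and 846 FPKM in CTL, 868, 683 and 780.3 FPKM in MS and 942, 777 and 619.9 FPKM in Blebb. The CTL libraries were close together, with an SD of 1.57% of the mean, whereas the SD was 11.9% in MS and 20.7% in Blebb, and the groups overlapped. The log2 difference of Mt1 was -0.15 in MS against CTL and -0.16 in Blebb against CTL, with an SE of 0.17 in each (limma adjusted p = 1.00). Mt2 was at 377, 286 and 297 FPKM in CTL, 435, 236 and 305 FPKM in MS and 345, 413 and 251.2 FPKM in Blebb. MS held both the highest and the lowest library of Mt2. The means of Mt2, 320.1 ± 49.6 (SD, n = 3), 325 ± 101 and 337 ± 81.3 FPKM, differed by less than the SD of any group. The transcripts Mt1-201 and Mt2-201 of these paralogs share runs of at most 20 bases. The antisense gene Gm45774 covers 73.5% of the Mt2 exon bases. Whether reads were counted by strand is not given in the sources used here, so reads of Mt2, Keap1 and Gclm cannot be told apart from those of the genes that overlap them.

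In MS against CTL, 7 of the 10 genes were above 0 and 3 below, with a median log2 difference of 0.12 beside -0.0018 over all genes tested. In Blebb against MS 3 were above and 7 below, with a median of -0.011 beside -0.0059. In Blebb against CTL 5 were above and 5 below, with a median of -0.024 beside -0.013. These counts turned with single libraries. In MS against CTL 3 were above and 7 below without CTL 1, and 2 above and 8 below without MS 1. In Blebb against MS 6 were above and 4 below without MS 1, and also with median-of-ratios factors, and in Blebb against CTL 8 were above and 2 below without CTL 3. The comparisons share groups and are not independent of each other.

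None of the 10 genes passed an adjusted p of 0.05 in any comparison with limma, where 0% of all genes tested passed in each. Without adjustment, 0 of 10 had a p under 0.05 in each comparison (limma), beside 0.158% of all genes in MS against CTL, 1.25% in Blebb against MS and 0.0890% in Blebb against CTL. No gene of the 10 was free of overlap in MS against CTL, where 0.524% of all genes were higher and 2.64% lower without overlap, or in Blebb against CTL, where the shares were 0.930% and 1.15%. The 95% intervals set the size of change that these libraries could still hold. In MS against CTL the interval was from -0.32 to 0.18 for Keap1 and from -0.22 to 0.56 for Hmox1, but from -0.87 to 1.21 for Txnrd1 and from -0.44 to 1.48 for Nqo1.

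**Figure D2:**
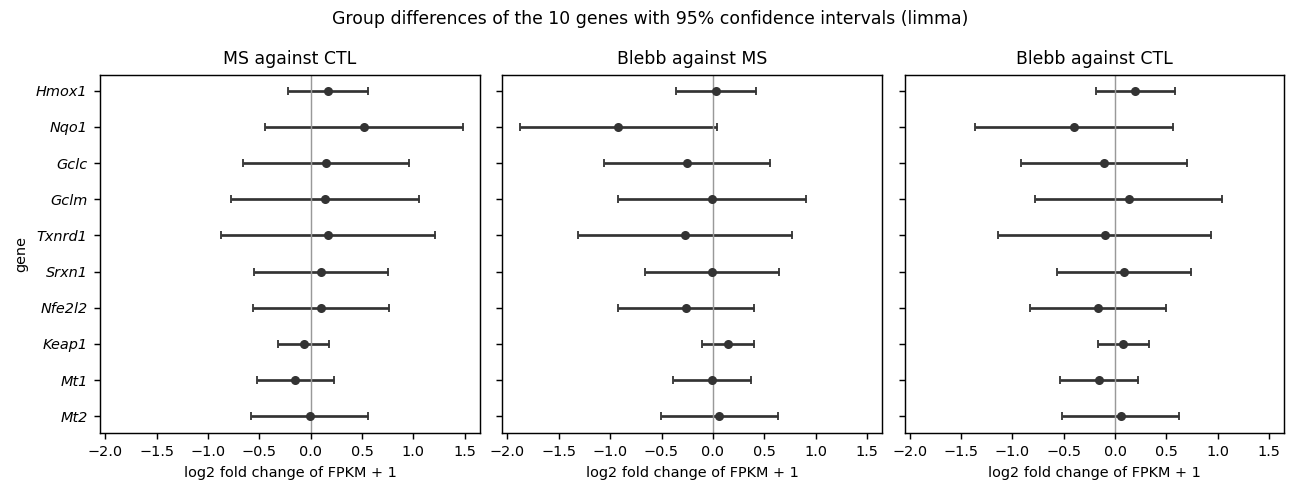
Log2 fold change of FPKM + 1 (horizontal axis) of the 10 genes in 3 comparisons, with points for the limma estimate and bars for its 95% confidence interval. Every interval includes 0, and the nearest to leaving it out is Nqo1 in Blebb against MS, from -1.88 to 0.040.

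Within the groups, the same libraries were low or high for several of these genes. Nqo1, Gclc, Gclm, Txnrd1 and Srxn1 were all lowest of their group in CTL 1, in MS 3 and in Blebb 2. Of all genes tested, 54.1%, 34.1% and 44.3% were lowest in those libraries, each taken alone. The share of genes that were lowest in all 3 was not counted, so how common the joint pattern is cannot be told. Hmox1 and Mt2 had the opposite order in CTL 1 and Blebb 2, where they were the highest of their groups, as were 33.5% and 36.8% of all genes. In MS the highest library was MS 1 for 9 of the 10 genes, all but Keap1, where 44.0% of all genes were highest. In MS 2, Hmox1, Nfe2l2, Mt1 and Mt2 were the lowest, as were 42.3% of all genes.

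The summed level of 20 genes of the integrated stress response, the ATF4 program that answers amino acid shortage and other stress, was 2419, 1057 and 1143 FPKM in CTL, 1205, 1049 and 1968 FPKM in MS and 1531, 2409 and 1123 FPKM in Blebb. It was highest in the same library of each group in which Nqo1, Gclc, Gclm, Txnrd1 and Srxn1 were lowest. Over the 9 libraries, Pearson's r with this sum was -0.96 for Txnrd1, -0.86 for Srxn1, -0.85 for Gclc and Gclm -0.70 for Nqo1 and -0.57 for Nfe2l2, while it was 0.60 for Hmox1 and Mt2, 0.27 for Mt1 and -0.0080 for Keap1. Over the 6 libraries other than CTL 1, MS 3 and Blebb 2 it was -0.53 for Txnrd1, 0.53 for Srxn1, -0.16 for Gclc, 0.20 for Gclm, -0.17 for Nqo1, -0.033 for Nfe2l2, 0.61 for Hmox1, 0.56 for Mt2, 0.59 for Mt1 and 0.57 for Keap1. For Gclc, Gclm, Nqo1, Nfe2l2 and Srxn1, r was thus near 0 or changed its sign without those 3 libraries. They are the libraries with the highest sums, and the other 6 had sums of 1049 to 1531 FPKM only. A fall in r over so narrow a range was largely fixed by leaving them out, so no conclusion is drawn from it. The libraries also differed in how FPKM followed the GC content of the genes (r from -0.64 in MS 1 to 0.55 in Blebb 1). Over the 9 libraries, r with this GC trend was -0.85 for Gclc, -0.79 for Nfe2l2, -0.75 for Txnrd1, -0.74 for Nqo1, -0.71 for Gclm and -0.56 for Srxn1, and over the other 6 it was -0.87, -0.65, -0.93, -0.58, -0.69 and -0.079. For Keap1 it was 0.48 and 0.77, and for Hmox1, Mt1 and Mt2 it was between 0.29 and 0.40 over 9 libraries and between -0.12 and 0.34 over 6. The part of either measure in the values was not tested. These correlations are descriptions and carry no test, since the measures come from the same libraries, whose depth is unknown and whose GC trends differ.

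**Figure D3:**
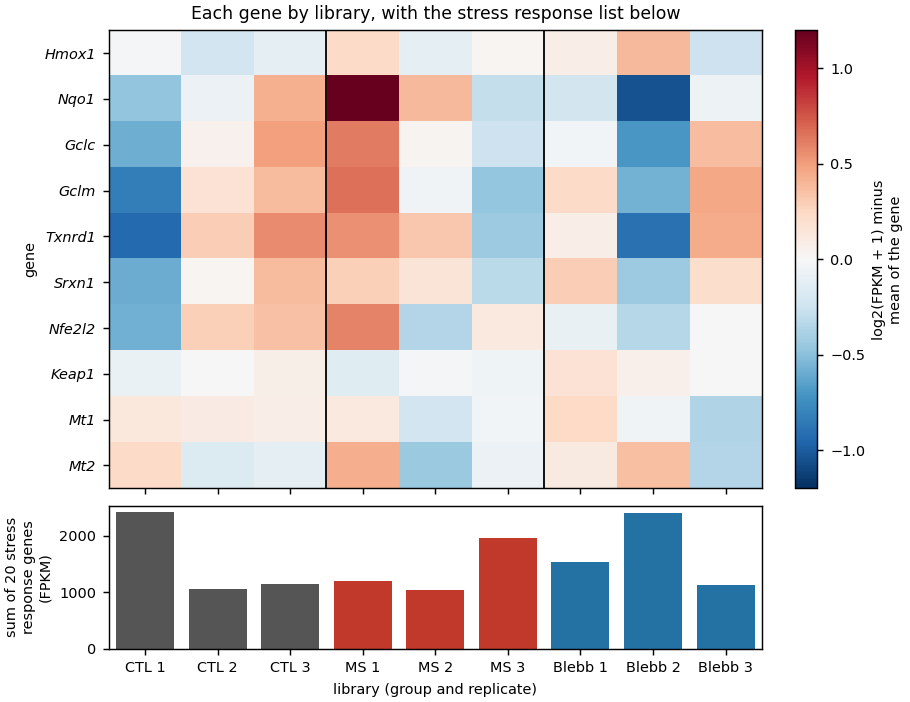
The upper panel gives log2(FPKM + 1) of each gene minus its mean over the 9 libraries, as color from blue (lower) to red (higher), and the lower panel gives the summed FPKM of 20 stress response genes, with libraries on the horizontal axis. Nqo1, Gclc, Gclm, Txnrd1 and Srxn1 are blue in CTL 1, MS 3 and Blebb 2, where the sum is at 2419, 1968 and 2409 FPKM.

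Some of the genes varied together over the 9 libraries. Among Nqo1, Gclc, Gclm, Txnrd1 and Srxn1, Pearson's r of log2(FPKM + 1) over 9 libraries was between 0.70 and 0.95 (median 0.92 over 10 pairs), with the highest value between Gclc and Txnrd1. Without CTL 1, MS 3 and Blebb 2 it was between 0.31 and 0.91 (median 0.57). Over all 45 pairs of the 10 genes, which include these 10 pairs, the median was 0.059 over 9 libraries and 0.44 over 6. These 5 genes, called the 5 enzyme genes here, are those that were lowest of their groups in CTL 1, MS 3 and Blebb 2. Hmox1, which also encodes an enzyme, is not among them and had r from -0.47 to -0.15 with them over 9 libraries. A high r among the 5 over 9 libraries thus follows in part from how they were grouped. With the 5 enzyme genes, Nfe2l2 had r from 0.62 (Srxn1) to 0.79 (Gclc) over 9 libraries, and from 0.23 (Srxn1) to 0.78 (Gclm) over 6. Hmox1 and Mt2 had an r of 0.84 over 9 libraries and 0.87 over 6, Mt1 and Mt2 had an r of 0.64 and 0.74, and Hmox1 and Mt1 had an r of 0.35 and 0.59. Between the 5 enzyme genes on one side and Hmox1, Mt1 and Mt2 on the other, the median of 15 pairs was -0.21 over 9 libraries and 0.31 over 6. Over 6 libraries Mt2 had an r of 0.67 with Gclm and 0.71 with Nfe2l2, against -0.21 and 0.059 over 9. Keap1 had r between -0.44 (Nqo1) and 0.27 (Srxn1) with the other genes over 9 libraries. Over 6 it was between -0.78 (Nqo1) and 0.30 (Mt1), with -0.66 for Txnrd1 and -0.60 for Gclc.

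**Figure D4:**
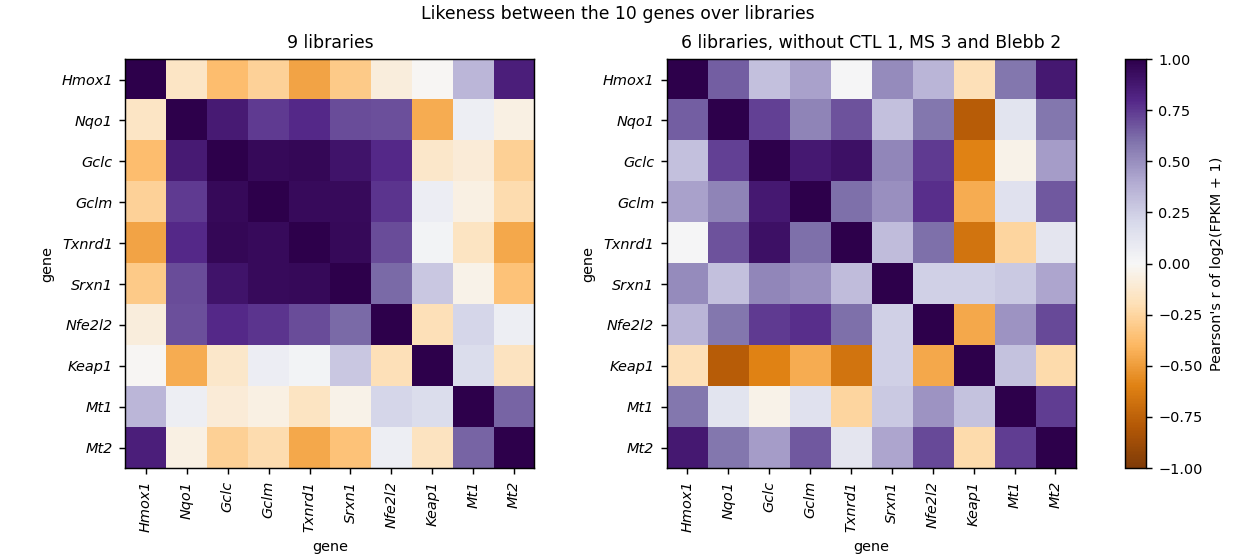
Pearson's r of log2(FPKM + 1) for each pair of the 10 genes, over all 9 libraries (left) and over 6 libraries (right), as color from orange (-1) to purple (1), with genes on both axes. The block of Nqo1, Gclc, Gclm, Txnrd1 and Srxn1 has a median of 0.92 on the left and 0.57 on the right.

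The genes outside the 10 whose values were most like each of them were sought among 6994 genes that averaged 5 FPKM or more, by Pearson's r over the 9 libraries. Gclc was most like Srpk1, Ddx18 and Uba2 (r of 0.99 each, and 0.99 over 6 libraries). Txnrd1 was most like Heatr3, Pbk and G3bp1 (0.99 each, and 0.88 to 0.91 over 6). Gclm was most like Anxa1, Mtap and Nup35 (0.98 to 0.99), Srxn1 like Stmn1, Tubgcp3 and Nxt1 (0.98 to 0.99) and Nqo1 like Psmc5, Nono and Swi5 (0.93 to 0.94). Nfe2l2 was most like Ythdf2, Safb and Leo1 (0.96 to 0.97) and Keap1 like Rbm15b, Traf7 and Mex3d (0.97 to 0.98). Hmox1 was most like Eipr1, Pam16 and Lhpp (0.92 to 0.95), Mt2 like Rtcb, Rnf130 and Emp3 (0.93 to 0.94) and Mt1 like Ints9, Srd5a3 and Eif3l (0.84 to 0.86). Of these 30 genes, 0 were in the lists of NRF2, antioxidant or metal genes described below. Those lists hold only 13, 38, 25 and 25 genes, not all of which averaged 5 FPKM, beside the 6994 genes searched. A count of 0 in 30 therefore says little about the 10 genes.

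Ratios of FPKM of partner genes within a library do not depend on the scaling of that library. They can still follow its GC trend where the partners differ in GC content, as Gclm (42.1%) and Gclc (47.7%) do. Ratios of FPKM are given first, and tests used log2 ratios of FPKM + 1, which depend somewhat on scaling when a gene is low. With a pseudocount of 0.1, the difference of Gclm to Gclc in Blebb against MS given below was 0.27. The ratio of Gclm to Gclc was 1.27, 1.64 and 1.37 in CTL, 1.53, 1.42 and 1.29 in MS and 1.83, 1.70 and 1.59 in Blebb. All Blebb libraries were above all MS libraries, although neither subunit alone was free of overlap, and CTL overlapped both. The log2 ratio was 0.24 higher in Blebb than in MS (0.70 ± 0.090 against 0.46 ± 0.13, SD, n = 3, exact two-sided permutation p = 0.1, the smallest that 3 against 3 can give). After adjustment over the 9 ratio tests p was 0.72 (exact permutation test), so it did not pass. The difference from CTL was 0.24 as well, with overlap (exact permutation p = 0.2). Without CTL 1, MS 3 and Blebb 2 the differences were 0.19 from MS and 0.17 from CTL.

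The ratio of Mt2 to Mt1 was between 0.335 in CTL 2 and 0.532 in Blebb 2. In each group the highest ratio was in a library where Mt2 was also the highest, namely CTL 1, MS 1 and Blebb 2. The ratio of Nfe2l2 to Keap1 was between 0.793 in CTL 1 and 1.92 in MS 1, and in Blebb it was between 0.851 and 1.14. The groups overlapped for both ratios, and the smallest exact permutation p among their 6 tests was 0.3.

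**Figure D5:**
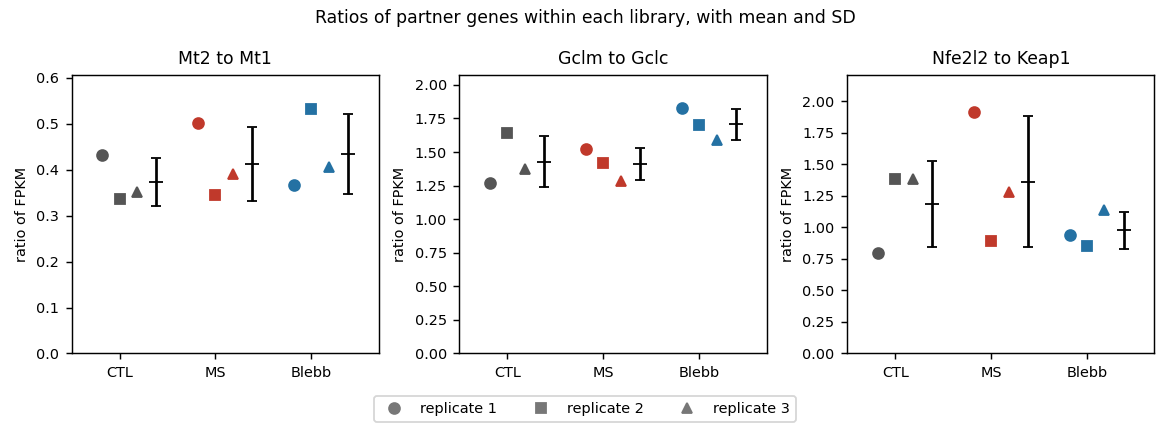
Ratios of FPKM (vertical axes, each from 0) of Mt2 to Mt1, Gclm to Gclc and Nfe2l2 to Keap1 in the 3 libraries of each group, with bars for the mean and SD (n = 3). The 3 Blebb libraries are above the 3 MS libraries for Gclm to Gclc, at 1.59 to 1.83 against 1.29 to 1.53.

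The genes around NRF2 and KEAP1 were examined as well. Of 13 partners and regulators 12 were tested, and 0 passed an adjusted or an unadjusted p of 0.05 in any comparison (limma). Mafk, a small MAF partner of NRF2, was at 14.6, 12.7 and 13.0 FPKM in CTL, 11.1, 11.9 and 12.4 FPKM in MS and 13.8, 15.8 and 13.8 FPKM in Blebb. The MS libraries were below all others, by as little as 12.4 against 12.7 FPKM. Of all genes tested, 2.64% were lower without overlap in MS against CTL and 3.05% higher without overlap in Blebb against MS. The log2 differences of Mafk were -0.17 in MS against CTL and 0.27 in Blebb against MS, with a standard error of 0.12 and an unadjusted p of 0.194 and 0.0533 (limma). Cul3, the scaffold of the KEAP1 ligase, was at 8.15 ± 4.82, 9.78 ± 3.49 and 6.30 ± 4.13 FPKM (SD) in the CTL, MS and Blebb groups of 3 libraries. Bach1, a repressor that competes with NRF2 for its elements, was at 3.05 ± 1.03, 3.45 ± 1.05 and 2.23 ± 1.25 FPKM, and Maff, a further small MAF protein, at 2.31 ± 0.95, 1.89 ± 0.70 and 3.21 ± 1.41 FPKM. Sqstm1, an autophagy receptor that sequesters KEAP1, was the most abundant of the list, at 1284 ± 81.4, 1377 ± 176 and 1454 ± 117 FPKM, and Rbx1, the RING subunit of the CUL3 ligase, was at 63.9 ± 8.10, 70.9 ± 9.10 and 66.7 ± 3.19 FPKM. None of these differences passed the test.

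Of 38 other NRF2 target genes 34 were tested, and 0 passed an adjusted p of 0.05 in any comparison (limma), while 1 had an unadjusted p under 0.05, in Blebb against MS, where 1.25% of all genes had one. This was Idh1, an NADPH-forming isocitrate dehydrogenase, at 16.4, 27.7 and 25.8 FPKM in CTL, 34.8, 22.8 and 28.4 FPKM in MS and 17.9, 15.3 and 22.6 FPKM in Blebb. All Blebb libraries were below all MS libraries, by as little as 22.6 against 22.8 FPKM, in a comparison where 0.683% of all genes were lower without overlap. The log2 difference of Idh1 was -0.60 in Blebb against MS (SE 0.24, unadjusted p = 0.0322, adjusted p = 0.897, limma). Slc7a11, the cystine importer, was at 4.20 ± 2.93, 6.26 ± 4.92 and 3.71 ± 2.34 FPKM (SD) in the CTL, MS and Blebb groups of 3 libraries, with MS 1 the highest at 11.9 FPKM. Gsta3, a glutathione transferase, also had its highest value in MS 1, at 12.9 FPKM, and its log2 difference was 0.36 in MS against CTL and -0.75 in Blebb against MS, with an SE of 0.49. The median log2 difference of the 34 genes was 0.074, -0.038 and 0.043 in MS against CTL, Blebb against MS and Blebb against CTL.

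Of 25 other antioxidant enzymes and regulators 22 were tested, and 0 passed an adjusted or an unadjusted p of 0.05 (limma). Txnip, which binds thioredoxin, was at 10.0 ± 3.93, 15.1 ± 6.26 and 9.71 ± 3.68 FPKM (SD) in the CTL, MS and Blebb groups of 3 libraries, with log2 differences of 0.52 in MS against CTL and -0.55 in Blebb against MS (standard error 0.37). Catalase (Cat) was at 23.9 ± 4.83, 28.3 ± 5.18 and 22.3 ± 2.76 FPKM. The mitochondrial thioredoxin reductase Txnrd2 had log2 differences of -0.073 in MS against CTL and -0.13 in Blebb against CTL, and was steadier than Txnrd1, with at most 1.30-fold between its highest and lowest library against 2.84-fold.

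Of 25 genes of zinc and metal handling 19 were tested, and 0 passed an adjusted or an unadjusted p of 0.05 (limma). The zinc importer Slc39a14 was at 12.5 ± 0.75, 10.98 ± 1.43 and 13.7 ± 1.45 FPKM (SD) in the CTL, MS and Blebb groups of 3 libraries, and its log2 difference in Blebb against MS was 0.30 (SE 0.14, unadjusted p = 0.0659, limma). Slc39a10, a further zinc importer, was at 3.62 ± 2.05, 4.14 ± 1.47 and 3.04 ± 1.90 FPKM, and the copper pump Atp7a at 4.003 ± 1.19, 4.62 ± 2.08 and 3.04 ± 1.84 FPKM. The summed level of the 25 genes was between 499 and 541 FPKM in all 9 libraries, while the sum of Mt1, Mt2 and the other 8 genes first described was between 1456 and 1984 FPKM.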

How the data were processed

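RNA of 9 libraries of B16 cells (3 each of CTL, MS and Blebb, grouped by their labels) was extracted with TRIzol and prepared with a SMARTER mRNA kit. The authors deposited 1 FPKM value per gene and library, already scaled by gene length and mapped fragments. Replicates were not pooled. The column of CTL 1 is headed by the sample's name and was read as FPKM. The submitters' processing notes name the builds GRCm38 and mm10, and the aligner, the counting program and the strand setting are not given in the sources used here. The files hold no read counts, so the depth and its counting error are unknown.

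A total of 10109 genes that averaged 1 FPKM or more were tested on log2(FPKM + 1) in limma 3.58.1 (R 4.3.3) in 1 fit of 3 groups, with a mean-variance trend, two-sided tests and Benjamini-Hochberg adjustment over all genes tested, at a threshold of 0.05. The fit was tested on simulated data. Log2 ratios within a library were compared by exact permutation (scipy 1.17.1), where the smallest p that 3 against 3 allows is 0.1, with Benjamini-Hochberg adjustment over 9 tests.

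The 10 genes and the lists (NRF2 partners and regulators, other NRF2 targets, other antioxidant enzymes, zinc and metal handling, integrated stress response and cell type markers) were chosen with earlier results of these data known. Beyond the 10 genes, the text names genes by a rule, namely, for each of the first 4 lists and each comparison, the 2 genes with the highest and the 2 with the lowest log2 difference, and the 3 genes most like each of the 10 by Pearson's r. Of these, those with the larger differences are described. Lyz2, Gsr, Fth1, Ftl1 and Gpx4 were named after their values were seen.

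Gene positions are from GENCODE M21 (GRCm38) and start windows from RefSeq (GRCm38.p6), of which 250 bases before each start were searched. Alternatives were other scalings (median-of-ratios factors or quantile normalization), a pseudocount of 0.1, a minimum of 5 FPKM or none, a fit without the trend or of 2 groups, the replicate number as a block, a correction for GC content by library (loess, span 0.5, with 95.6% of tested genes covered) with and without the block, leaving out CTL 1, MS 3 and Blebb 2 together, and leaving out each library in turn. For the ratios, leaving out those 3 libraries was added after seeing the data. Plots were drawn with matplotlib 3.10.9.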

Additional observations from a re-analysis of the deposited data

How the results depend on the processing

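Under every alternative, 0 of the 10 genes and 0 of the pathway genes passed an adjusted p of 0.05 in any comparison (limma). At an unadjusted p under 0.05, Nqo1 passed in Blebb against MS with median-of-ratios factors, without CTL 1, MS 3 and Blebb 2 together, without MS 3 and without Blebb 3, while its adjusted p lay between 0.449 and 1.00 over all alternatives, and Hmox1 passed in Blebb against CTL without Blebb 3. Over all genes, the adjusted count was between 0 and 1 without each replicate in turn, in MS against CTL and in Blebb against MS, with 1 only without MS 2. The number of all genes with an unadjusted p under 0.05 was 16, 126 and 9 in MS against CTL, Blebb against MS and Blebb against CTL, and lay between 7 (without MS 1) and 115 (without MS 2), between 34 (without MS 1) and 935 (without Blebb 3) and between 8 (without MS 1 or Blebb 1) and 94 (without Blebb 3) as single libraries were left out. The labels number the replicates of each group, but the deviations of libraries with the same number were correlated between -0.785 and 0.835. Libraries of the same number were thus not consistently alike, and whether the numbers pair cultures cannot be told from these values. With the replicate number as a block the adjusted counts were 0, Nqo1 in Blebb against MS was at -0.92 with an unadjusted p of 0.0889, and no call of the 10 genes changed. Depth is unknown and limits what can be said of genes with few reads.

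Of the 330 values of the 10 genes with settings other than leaving out 1 library, 25 changed direction, and 305 did not. The cause of these changes was not tested. Many of the 305 could not change. The other minimum or none, the fit without the trend or of 2 groups, and the replicate block alone leave a difference of group means as it is. Nqo1 in MS against CTL was at 0.52 under each of them. The share of 25 in 330 therefore understates how often direction turned where it could. In MS against CTL, Mt2 was at 0.0026 after quantile normalization. Under GC correction, with and without the block, Gclm was at -0.048, Keap1 at 0.032, Mt2 at 0.074, Rbx1 at -0.032 and Txnrd2 at 0.0071. Without the 3 libraries together, Nfe2l2 was at -0.20, Mt2 at 0.14, Cul3 at -0.049 and Slc39a10 at -0.044. In Blebb against MS, median-of-ratios factors gave 0.021 for Gclm, 0.022 for Srxn1 and 0.024 for Mt1, and quantile normalization gave -0.013 for Hmox1, 0.025 for Gclm and 0.024 for Mt1. Under GC correction, with and without the block, Hmox1 was at -0.061, Gclm at 0.31 and Mt2 at -0.055. Without the 3 libraries together, Hmox1 was at -0.14, Gclm at 0.039, Srxn1 at 0.038, Mt2 at -0.12, Prdx5 at -0.075 and Glrx at -0.028. No direction of the named genes changed in Blebb against CTL with these settings. For the ratios, leaving out the 3 libraries together, an alternative chosen after seeing the data, gave -0.11 for Mt2 to Mt1 in Blebb against MS and -0.081 for Nfe2l2 to Keap1 in MS against CTL.

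Leaving out each library in turn changed the direction of 39 of 270 values of the 10 genes, 18 of 432 of the other named genes and 7 of 54 of the ratios. For the genes, these totals include leaving out libraries of the group not compared, which cannot move the difference. For the ratios, only libraries of the groups compared were left out, so the shares are not on the same basis. In MS against CTL, the ranges of those that turned were for Abcc1 from -0.30 to 0.011, Cul3 from -0.17 to 0.73, Gclc from -0.14 to 0.40, Gclm from -0.23 to 0.40, Gsta3 from -0.19 to 0.69, Maff from -0.44 to 0.030, Mt2 from -0.24 to 0.20, Nfe2l2 from -0.20 to 0.33, Slc39a10 from -0.21 to 0.50, Slc6a9 from -0.48 to 0.28, Slc7a11 from -0.082 to 0.86, Srxn1 from -0.17 to 0.32, Txnrd1 from -0.28 to 0.46, Txnrd3 from -0.26 to 0.10, the log2 ratio of Gclm to Gclc from -0.089 to 0.091, the log2 ratio of Mt2 to Mt1 from -0.011 to 0.26 and the log2 ratio of Nfe2l2 to Keap1 from -0.11 to 0.43. In Blebb against MS, the ranges of those that turned were for Gclc from -0.50 to 0.035, Gclm from -0.27 to 0.29, Hmox1 from -0.13 to 0.19, Mt1 from -0.16 to 0.15, Mt2 from -0.14 to 0.30, Prdx5 from -0.023 to 0.30, Slc6a9 from -0.15 to 0.53, Srxn1 from -0.19 to 0.22, Txnrd1 from -0.56 to 0.11 and the log2 ratio of Mt2 to Mt1 from -0.081 to 0.22. In Blebb against CTL, the ranges of those that turned were for Cat from -0.25 to 0.039, Cul3 from -0.84 to 0.10, G6pdx from -0.015 to 0.25, Gclc from -0.39 to 0.18, Gclm from -0.24 to 0.44, Mt2 from -0.11 to 0.25, Nfe2l2 from -0.46 to 0.0029, Prdx5 from -0.053 to 0.27, Srxn1 from -0.18 to 0.32 and Txnrd1 from -0.56 to 0.28.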

Other observations

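Among other genes of these lists, chosen after their values were seen, Gsr, the glutathione reductase, differed widely between libraries. It was at 13.6, 49.8 and 60.4 FPKM in CTL, 55.7, 46.9 and 22.6 FPKM in MS and 48.3, 18.8 and 54.6 FPKM in Blebb. CTL 1, MS 3 and Blebb 2 were below every other library, as for Txnrd1 and Srxn1. Gpx4, the glutathione peroxidase that reduces lipid peroxides, was at 335, 673 and 456 FPKM in CTL, 656, 646 and 372 FPKM in MS and 497, 439.9 and 439.9 FPKM in Blebb, with overlap between the groups.

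The ferritin chains, which store iron and are NRF2 targets, were the most abundant genes of the lists. The light chain Ftl1 was between 8619 and 11126 FPKM and the heavy chain Fth1 between 3683 and 5222 FPKM, a spread of 1.29-fold and 1.42-fold over the 9 libraries. Fth1 was highest in CTL 1 and Blebb 2, the libraries where Hmox1 and Mt2 were also the highest of their groups.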
